A study of Mus musculus with 4 samples.

Results

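The transcripts described here encode 10 proteins of the immediate early response: the nuclear receptors Nr4a1, Nr4a2 and Nr4a3, the zinc finger factors Egr1, Egr2 and Egr3, the oncogenic factor Myc, the serum response factor Srf, and Ier2 and Ier3, named as immediate early response genes. They are 10 of 22180 genes that had a probe set annotated with exactly 1 symbol, and of 14652 genes bright enough to be tested. All 10 were bright enough, and each had 1 probe set, so no choice between probe sets was needed. The members were chosen by name with their log2 differences in this same comparison already known. The differences of its members are therefore given as a description, with standard errors (SE) and 95% intervals. Where calls from the fit over all genes are counted among them, the count is a description too and supports nothing.

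The cells were dendritic cells grown from the bone marrow of C57BL/6 mice and harvested on day 7 of culture. One group of 2 arrays came from cells kept for 2 h in 0.3 µM sulforaphane, an isothiocyanate found in broccoli and its relatives and known as an inducer of NRF2, with DMSO as solvent. The other group of 2 arrays came from cells kept for the same time in DMSO alone. Both groups then received 100 ng/ml lipopolysaccharide (LPS) for 1 h, so every sample was stimulated, and no unstimulated sample was analysed here. By its title the series is about inhibition of IL-23 and IL-12 in dendritic cells, and the arrays set LPS-stimulated cells with and without sulforaphane against each other. Whether the 2 replicates of a group came from separate mice or cultures is not given in the labels. The errors therefore describe the spread between these arrays, which may be technical. They are moderated, since the fit (limma, eBayes) draws the spread of each gene towards that of all genes tested. An SE or interval can thus be wider or narrower than the replicates of that gene alone would give.

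Immediate early genes are transcribed within minutes of a stimulus from factors already present in the cell, without new protein synthesis. Below Toll-like receptors, MAP kinases phosphorylate the ternary complex factors that sit with SRF on serum response elements. Kinases downstream of MAP kinases phosphorylate the factor CREB on cyclic AMP response elements, while NF-kB acts on its own sites. The messengers made this way mostly encode transcription factors of a next wave, and most are short-lived. NR4A receptors are orphan nuclear receptors that are controlled mainly through their abundance, EGR proteins bind GC-rich sites and are held in check by NAB corepressors, and MYC works as a heterodimer with MAX on genes of growth and ribosome synthesis.

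Promoter sequence is shown for 4 of the genes because the elements named above can be read in it: Nr4a1 and Nr4a2, which differed in the size of their response, Srf, and Ier3, which did not differ clearly. RefSeq windows of assembly GRCm38.p6 were matched for 6 of the 10 genes, 5 windows for Egr2 and 1 each for Nr4a1, Nr4a2, Nr4a3, Ier3 and Srf. Windows of Egr1, Egr3, Myc and Ier2 were not used here. Each sequence below is the 250 bases before an annotated start, written 5′ to 3′ on the gene's strand. Capitals mark the core of the cyclic AMP response element, TGACG, on either strand (CGTCA on the other), the CArG box, which is the core of the serum response element, and the kappaB site. The windows lie at chr15:101266596-101266845 on the plus strand for Nr4a1, chr2:57124004-57124253 on the minus strand for Nr4a2, chr17:46556163-46556412 on the minus strand for Srf and chr17:35821463-35821712 on the plus strand for Ier3.
Nr4a1: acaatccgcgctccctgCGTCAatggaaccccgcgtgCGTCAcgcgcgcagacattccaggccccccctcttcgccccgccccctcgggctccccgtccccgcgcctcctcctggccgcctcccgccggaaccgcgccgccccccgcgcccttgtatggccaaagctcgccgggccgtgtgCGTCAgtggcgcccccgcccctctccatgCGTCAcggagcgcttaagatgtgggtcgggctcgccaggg
Nr4a2: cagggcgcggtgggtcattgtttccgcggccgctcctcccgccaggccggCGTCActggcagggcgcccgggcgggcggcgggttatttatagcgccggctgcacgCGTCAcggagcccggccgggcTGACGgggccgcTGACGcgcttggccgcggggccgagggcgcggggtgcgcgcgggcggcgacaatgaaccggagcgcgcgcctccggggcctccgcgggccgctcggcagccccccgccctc
Srf: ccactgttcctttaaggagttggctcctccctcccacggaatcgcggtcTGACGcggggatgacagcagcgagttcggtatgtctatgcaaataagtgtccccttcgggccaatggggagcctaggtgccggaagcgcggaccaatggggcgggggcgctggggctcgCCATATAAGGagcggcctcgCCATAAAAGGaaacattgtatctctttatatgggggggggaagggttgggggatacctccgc
Ier3: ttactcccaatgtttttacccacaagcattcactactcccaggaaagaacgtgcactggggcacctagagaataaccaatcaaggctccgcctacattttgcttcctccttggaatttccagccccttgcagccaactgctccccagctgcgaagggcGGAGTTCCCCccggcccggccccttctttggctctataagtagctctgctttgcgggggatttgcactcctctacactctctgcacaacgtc

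The windows of Nr4a1 and Nr4a2 each held 4 TGACG cores, and so did that of Nr4a3, which is not printed. In Nr4a1 all 4 ran on the opposite strand, the nearest ending 36 bases before the start. Of 27025 genes with a window of this length, 19.8% held at least 1 TGACG on either strand, and 0.163% held 4 or more in 1 window. Among the 6 genes matched here, 5 held at least 1. The cut of 4 equals the count in the windows of Nr4a1, Nr4a2 and Nr4a3, so it is no independent reference. G and C made up 74.4%, 80% and 63.6% of those windows. The shares over all genes were not matched for base composition. The longer palindrome TGACGTCA, which contains the TGACG core, stood in none of the windows of the 6 genes and in 1.77% of all genes. The CArG box occurred in 2 copies in the Srf window, the nearest ending 53 bases before the start, and in windows of Egr2, against 1.62% of all genes. A kappaB site occurred in Ier3 and Egr2, against 8.23% of all genes. A gene was counted if any of its windows matched. Egr2 had 5 windows, while the 27025 genes had 32851 together, so these shares are not a like reference for Egr2. Its kappaB and CArG matches lay in different windows. The core of the antioxidant response element, searched as TGACNNNGC on both strands, was found in Nr4a2, Nr4a3 and Egr2 and in 11.5% of all genes. In each of these 3 genes it shared its bases with a TGACG core. The binding sites of the families themselves, GCGTGGGCG for EGR proteins and AAAGGTCA for NR4A receptors, were in none of the 6 genes' windows and in 0.622% and 1.55% of all genes. These matches are descriptions of letters, and nothing about binding was measured.

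Values are on the log2 scale of the RMA method, on which a difference of 1 is a factor of 2. After sulforaphane, Nr4a1, Egr3 and Myc were lower by more than 1 on this scale, Nr4a2, Srf and Ier2 were lower by 0.43 to 0.50, and Nr4a3, Egr1, Egr2 and Ier3 had intervals that included 0. For 8 genes both sulforaphane arrays lay below both DMSO arrays, and for 1, Egr1, both lay above them. Over all genes tested, 19.5% were lower and 24% higher without overlap. At 1.5-fold or more without overlap, 3 of the 10 were lower and 0 higher, against 1.49% and 1.32% of all genes. One of the 10, Nr4a1, was lower past an adjusted p of 0.05 (limma, Benjamini-Hochberg over all genes tested), and 0 were higher, against 0.0683% and 0.0614% of all genes. Because the list was chosen with this comparison known, these shares are given side by side only. The median of the 10 differences was -0.46, and that of all genes tested was 0.018.

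**Figure D1:**
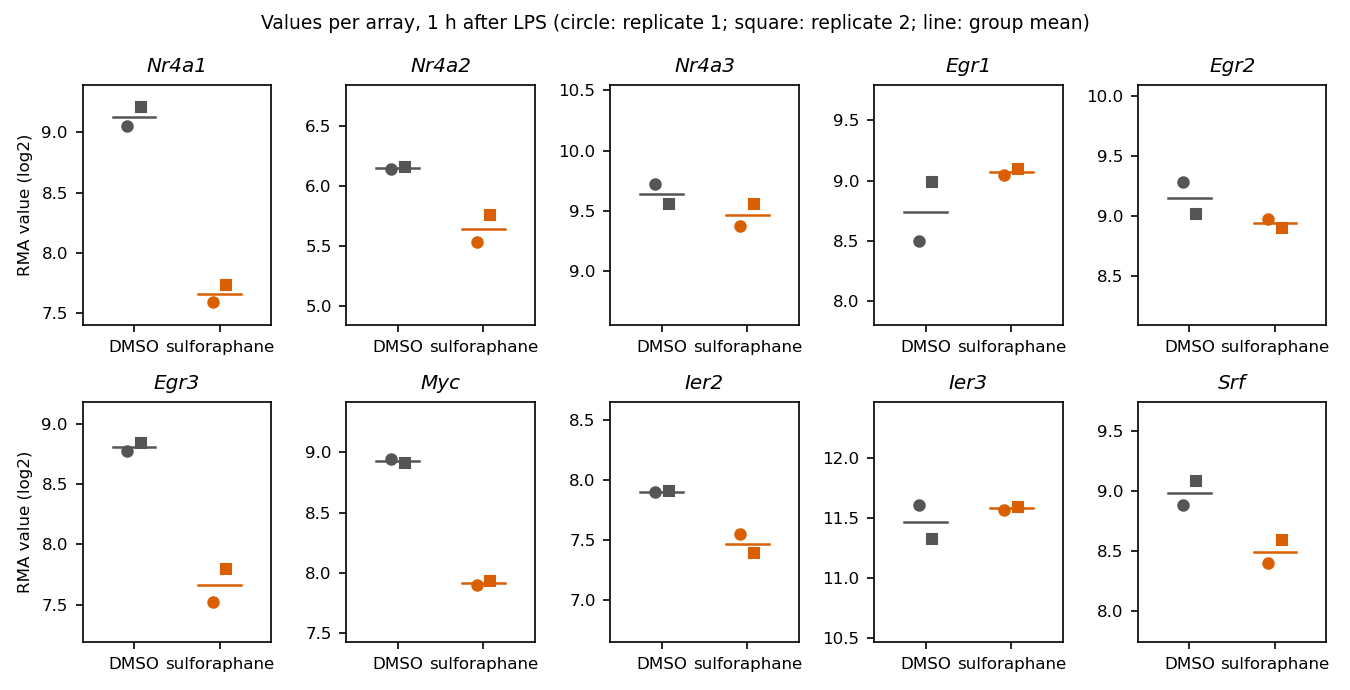
Log2 RMA value of each of the 10 genes in every array, with DMSO arrays in grey and sulforaphane arrays in orange, circles for replicate 1, squares for replicate 2 and a line at the group mean. Every panel spans 2 log2 units. The wide gaps in Nr4a1, Egr3 and Myc contrast with Nr4a3 and Ier3, whose arrays lie close together or overlap.

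DMSO replicate 1 stood apart from the other arrays, with an interquartile range of 3.41 over all probe sets against 3.61 to 3.62 in the others. Markers that define the cells were present: Itgax (CD11c) lay between 11.26 and 11.33 in the 4 arrays, and the dendritic cell factor Zbtb46 was at 6.22 and 6.44 in DMSO and at 6.01 and 5.95 in sulforaphane arrays. The cytokine receptor Flt3 was at 4.92 and 4.95 in DMSO and at 4.34 and 4.69 in sulforaphane arrays. Zbtb46 and Flt3 were thus lower without overlap after sulforaphane. Itgax (11.26 and 11.26 in DMSO, 11.33 and 11.32 in sulforaphane arrays) was higher without overlap. So was H2-Ab1, at 11.37 and 11.72 in DMSO and at 11.81 and 11.80 in sulforaphane arrays. Over all genes tested, 19.5% were lower and 24% higher without overlap. Of 13 tested dendritic cell markers, 7 lay below 0 and 6 above, and of 13 tested macrophage and monocyte markers 11 and 2. These counts were 4 and 10 for 14 tested neutrophil markers and 8 and 1 for 9 tested mast cell and basophil markers. For 6 tested B cell markers they were 5 and 1, and for 7 tested T and NK cell markers 4 and 3. The 4 tested erythroid and megakaryocyte markers had 1 and 3. Of all genes tested, 45.8% lay below 0. The summed level of 13 measured dendritic cell markers, taken as the mean of their log2 values, was 8.85 and 8.92 in DMSO and 8.64 and 8.74 in sulforaphane arrays. That of 13 macrophage and monocyte markers was 9.18 and 9.24 in DMSO and 9.01 and 9.05 in sulforaphane arrays, and the macrophage receptor Csf1r lay between 11.19 and 11.26. That of 14 neutrophil markers ran from 9.06 to 9.32 in DMSO and from 9.14 to 9.26 in sulforaphane arrays. Mast cell and basophil markers (12) were at 5.69 to 5.79 and 5.53 to 5.63, B cell markers (10) at 3.29 to 3.31 and 3.06 to 3.28, and T and NK cell markers (13) at 3.35 and 3.28 to 3.29. Those of erythroid and megakaryocyte cells (6) ran from 6.04 to 6.06 and 5.99 to 6.17. The NK cell receptor Ncr1 was below the intensity filter, and the T cell receptor chain Cd3e lay between 2.85 and 3.24. Other markers of non-dendritic cells were brighter than Zbtb46 and Flt3. Of the neutrophil markers, S100a8 lay between 10.47 and 11.07 and Ly6g between 7.96 and 8.34. Of the mast cell and basophil markers, Kit lay between 7.70 and 7.95, and Fcer1a was low, between 3.61 and 3.71. None of the markers passed the threshold, and their part in the results below was not tested. In bulk samples, fewer cells of a type and less RNA per cell cannot be told apart.

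Among the NR4A receptors the 3 family members went from a large difference to none that could be read. Nr4a1, also called Nur77, acts in antigen-receptor and inflammatory signalling and restrains NF-kB-driven transcription in myeloid cells. It was at 9.05 and 9.21 in the DMSO arrays and at 7.59 and 7.73 in the sulforaphane arrays. Both sulforaphane arrays lay 1.33 or more below the lower DMSO array, while replicates were 0.155 apart in DMSO and 0.141 in sulforaphane arrays. The difference was -1.47 ± 0.12 SE (n = 2 per group, 95% interval -1.77 to -1.18), a level 2.78-fold lower. Only 7 of the genes tested had a more negative difference.

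Nr4a2, also called Nurr1 and best known for the development of dopamine neurons, was at 6.14 and 6.15 in DMSO and at 5.53 and 5.76 in sulforaphane arrays. The DMSO arrays were nearly equal and the sulforaphane arrays were both lower, without overlap. The difference was -0.50 ± 0.12 SE (-0.80 to -0.20), or 1.42-fold lower. Nr4a3, also called Nor1, which is linked to dendritic cell migration, was at 9.73 and 9.56 in DMSO and at 9.37 and 9.55 in sulforaphane arrays. The higher sulforaphane array and the lower DMSO array were almost the same, apart by 0.0026, so the groups failed to overlap by far less than the distance between replicates. The difference was -0.18 ± 0.13 SE (-0.49 to 0.13), and it was -0.087 without sulforaphane replicate 1, -0.093 without DMSO replicate 1 and -0.27 without sulforaphane replicate 2. The interval of Nr4a1 does not meet those of Nr4a2 and Nr4a3. All 3 promoter windows carried 4 TGACG cores, and whether these bear on the differences was not tested.

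The EGR factors did not move together. Egr3, which is induced in stimulated lymphocytes together with Egr2 and limits their activation, was at 8.78 and 8.85 in DMSO and at 7.53 and 7.79 in sulforaphane arrays. The sulforaphane arrays were both lower, and they stood further from each other than the DMSO arrays did. The difference was -1.15 ± 0.13 SE (-1.47 to -0.83), a level 2.22-fold lower, and 21 genes had a more negative one. Egr2, also called Krox20 and known for hindbrain and Schwann cell development, was at 9.28 and 9.02 in DMSO and at 8.97 and 8.91 in sulforaphane arrays. Its groups were 0.049 apart, less than the distance between its DMSO arrays. The difference was -0.21 ± 0.13 SE (-0.53 to 0.10), and it went to -0.083 without DMSO replicate 1 and -0.34 without DMSO replicate 2.

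Egr1, the family member induced by most growth and stress signals, was at 8.50 and 8.99 in DMSO and at 9.05 and 9.10 in sulforaphane arrays. It was the one gene of the 10 whose sulforaphane arrays both lay above the DMSO arrays. DMSO replicate 1 was low, and DMSO replicate 2 lay 0.0635 below the nearest sulforaphane array. The difference was 0.33 ± 0.18 SE (-0.10 to 0.76). It was 0.088 without DMSO replicate 1 and 0.57 without DMSO replicate 2, so its size rested on the array that stood apart in the series.

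Myc, the regulator of growth and ribosome synthesis, was the most even of the 10 genes. It was at 8.94 and 8.91 in DMSO and at 7.90 and 7.93 in sulforaphane arrays. Replicates of either group lay within 0.033 of each other, while the groups were 0.98 apart. The difference was -1.01 ± 0.11 SE (-1.27 to -0.75), a level 2.01-fold lower, and 33 genes had a more negative one. With any single array left out it stayed between -1.03 and -0.99.

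Srf, the factor that binds serum response elements and is itself a target of them, was at 8.89 and 9.08 in DMSO and at 8.40 and 8.59 in sulforaphane arrays. The groups were 0.30 apart, more than the distance of about 0.19 to 0.20 between replicates. The difference was -0.49 ± 0.13 SE (-0.81 to -0.17), or 1.40-fold lower, and -0.59 to -0.39 with an array left out.

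Ier2, a short-lived nuclear protein, was at 7.90 and 7.91 in DMSO and at 7.55 and 7.39 in sulforaphane arrays. Its DMSO arrays were nearly equal and its sulforaphane arrays were both lower. The difference was -0.43 ± 0.11 SE (-0.71 to -0.15), or 1.35-fold lower. Ier3, also called IEX-1, a modulator of survival and NF-kB signalling, was at 11.61 and 11.32 in DMSO and at 11.56 and 11.59 in sulforaphane arrays. The sulforaphane arrays lay between the DMSO arrays, so Ier3 was the one gene whose groups overlapped. The difference was 0.11 ± 0.13 SE (-0.21 to 0.44), and it turned to -0.028 without DMSO replicate 2 and was 0.25 without DMSO replicate 1.

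**Figure D2:**
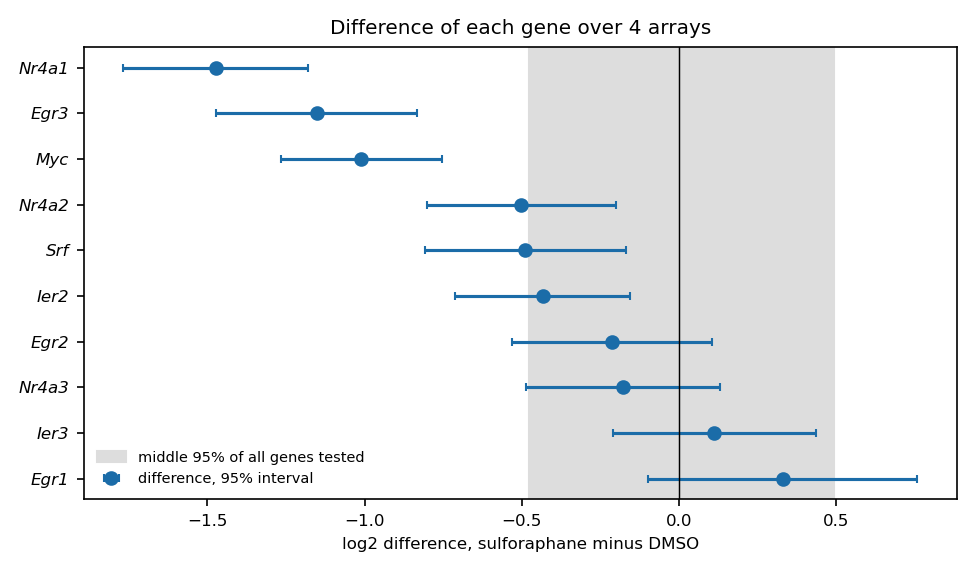
Log2 difference of each gene, sulforaphane minus DMSO, ordered from the most negative at the top, with its 95% interval from limma and the middle 95% of differences over all genes tested (-0.48 to 0.49) in grey. Nr4a1, Egr3 and Myc lie clear of the grey band, Nr4a2 and Srf lie at its edge, and the intervals of Egr2, Nr4a3, Ier3 and Egr1 cross 0.

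**Figure D3:**
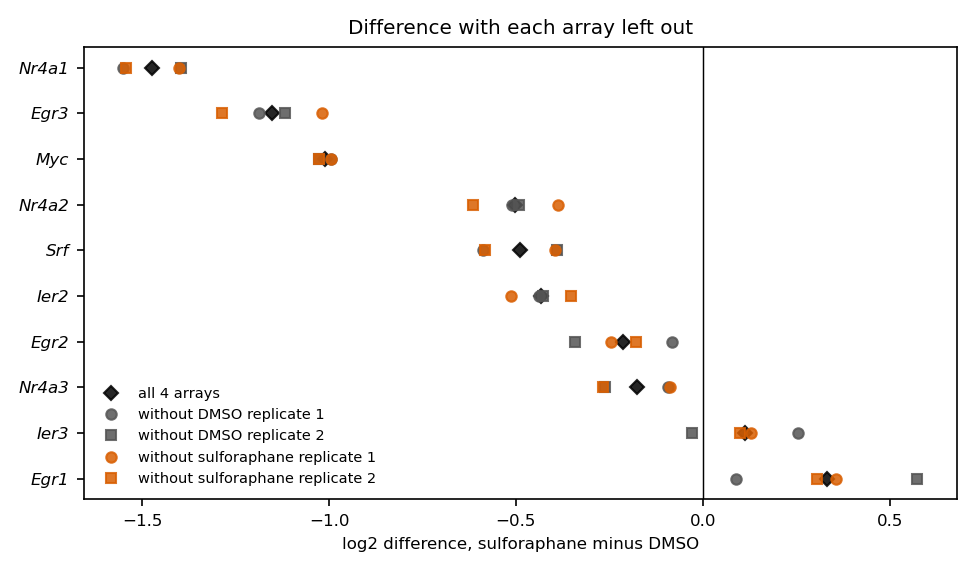
The same log2 differences with all 4 arrays (diamonds) and with each array left out (circles and squares, grey for DMSO and orange for sulforaphane arrays). Myc hardly moves, Egr1 runs from 0.088 to 0.57, and Ier3 crosses 0 without DMSO replicate 2.

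The profiles of some pairs were close over the 4 arrays. Likeness was measured as the Euclidean distance between the 4 values of 2 genes, each centred on its own mean, in log2 units. Within the 10 genes, Nr4a2 and Srf were nearest (0.132), then Nr4a3 and Egr2 (0.190) and Egr3 and Myc (0.229). Nr4a1 was nearest to Egr3 (0.339), and Nr4a1 and Egr1 were the furthest apart (1.82). All these distances rest on 4 arrays that every gene shares, and they follow largely from the size of the difference between groups.

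Outside the list, predicted genes, clone names and small RNA genes named by a number were passed over. Among the remaining genes tested, the nearest to Nr4a1 were Usp18, which removes ISG15 from proteins (0.150), and the TNF superfamily ligands Tnfsf15 (0.211) and Ltb (0.230). Nearest to Egr3 were the lipid mediator receptor gene Gpr18 (0.026), the transcriptional repressor Gfi1 (0.109) and the antiviral enzyme Rsad2 (0.153). Nearest to Myc were the C-type lectin-like receptor Klrb1b (0.0596), the chemokine Ccl4 (0.0658) and the NF-kB cofactor Bcl3 (0.0661). In each of these 9 genes both sulforaphane arrays were below both DMSO arrays, with differences from -1.62 (Tnfsf15) to -0.95 (Bcl3). The genes were picked for closeness to profiles with a wide gap between groups, so this outcome follows from the choice.

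For the other 6 genes whose groups did not overlap, the nearest profiles were picked in the same way, so their closeness is built in. Nr4a2 was nearest to Bysl, which acts in ribosome synthesis, the prostaglandin receptor Ptger4 and the hair keratin Krt83. Srf was nearest to Dhx58, a helicase related to RIG-I, the signalling suppressor Socs1 and Hivep3. Ier2 was nearest to Ripor2, the lysosomal trafficking regulator Lyst and the integrin subunit Itga4. Egr1 was nearest to Tmem260, Zfp810 and the glycogen branching enzyme Gbe1, all of them low in DMSO replicate 1. Nr4a3 was nearest to Pcyox1l, Pcdh1 and Epha8, and Egr2 to Pcdh10, Kcnk5 and the retinoblastoma relative Rbl2. These 18 distances ran from 0.0119 (Pcyox1l) to 0.05 (Krt83). Krt83, Pcdh1, Epha8, Pcdh10 and Kcnk5 were faint, with group means from 2.91 to 3.65, near the intensity filter of 2.91. The groups of Epha8 overlapped.

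The wider immediate early response was split. Over all genes tested, 13% had an unadjusted p under 0.05 by limma, 45.8% lay below 0, and 0.0683% were called lower. These are the shares to set beside the counts of each list that follows. Of 52 tested genes of a list of other immediate early genes, 1 fell and 0 rose over all genes (17, or 32.7%, had an unadjusted p under 0.05 by limma), 32 lay below 0 and 20 above, and the median was -0.062. The one that fell was Dusp2, a nuclear phosphatase of MAP kinases, at 6.44 and 6.43 in DMSO and 5.25 and 5.28 in sulforaphane arrays (-1.17 ± 0.10 SE, adjusted p = 0.0326 by limma). Leaving out any 1 array removed this call. The next in order did not pass: Trib1, a pseudokinase that steers protein degradation (-0.85 ± 0.11, adjusted p = 0.0580), the AP-1 subunit Fosl2 (-0.83 ± 0.11, 0.0581) and the prostaglandin synthase Ptgs2 (-0.90 ± 0.12, 0.0581).

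Of 8 corepressors and relatives of the EGR proteins, 0 passed by limma, 1 had an unadjusted p under 0.05, and the median was 0.0074. That 1 was Nab2, the EGR corepressor that EGR proteins also induce. It was at 9.75 and 9.63 in DMSO and at 8.93 and 9.19 in sulforaphane arrays, without overlap. Its difference was -0.63 ± 0.13 SE (-0.95 to -0.31, adjusted p = 0.148 by limma). The second NAB corepressor, Nab1, differed by -0.31 ± 0.13 (-0.63 to 0.020). The GC-box factor Sp3 differed by 0.23 ± 0.15 and the acetyltransferase Crebbp by 0.10 ± 0.11.

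Of 8 tested partners and corepressors of NR4A receptors, 0 passed by limma, 1 had an unadjusted p under 0.05, and the median was -0.014. That 1 was Fhl2, a LIM-domain protein that binds Nr4a1, which differed by -0.44 ± 0.14 SE at a low level (3.68 and 4.01 in DMSO, 3.40 and 3.41 in sulforaphane arrays). The corepressor Trim28 differed by 0.17 ± 0.11 and the deacetylases Hdac1 and Hdac3 by -0.19 ± 0.12 and -0.064 ± 0.12.

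Genes around MYC were described in 2 lists. Of 22 tested genes of the MYC network, its partners, rivals and regulators, 0 passed by limma, 3 (13.6%) had an unadjusted p under 0.05, close to the share of all genes, and the median was 0.011. Mnt, which rivals MYC for MAX, was at 6.30 and 6.69 in DMSO and at 6.83 and 7.30 in sulforaphane arrays (0.57 ± 0.20 SE, interval 0.076 to 1.07). The rival Mxd1 differed the other way (-0.34 ± 0.12), the ubiquitin ligase subunit Skp2 by 0.36 ± 0.13 and the MYC-binding Zbtb17 by -0.24 ± 0.11.

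Of 47 tested MYC targets, mostly genes of ribosome synthesis and growth, 0 passed by limma and 8 (17%) had an unadjusted p under 0.05, against 13% of all genes. In this list 34 lay below 0 and 13 above, with a median of -0.091, where 45.8% of all genes tested lay below 0. Without overlap, 22 were lower and 5 higher, beside the shares of 19.5% and 24% over all genes given above. These counts were 22 and 12 among the 52 other immediate early genes and 5 and 5 in the MYC network. They were 2 and 2 for the EGR list, 2 and 1 for the NR4A list and 4 and 1 for the list of SRF cofactors. Cytoskeletal SRF targets had 5 and 7, and the kinases, regulators and CREB factors upstream had 9 and 6. Rrs1, Wdr43 and Nop58, which act in ribosome synthesis, differed by -0.53 ± 0.12, -0.44 ± 0.12 and -0.40 ± 0.11 SE. Nampt, the enzyme of NAD salvage, differed by 0.49 ± 0.11 (adjusted p = 0.162 by limma) and is also an inflammatory gene.

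Genes around SRF showed no call. A list of SRF cofactors and factors that bind beside them had 9 tested members, of which 0 passed by limma and 2 had an unadjusted p under 0.05 (22.2%, against 13% of all genes). Sap30, Ets1, Ets2 and Cited2 on this list are not SRF cofactors, so its counts do not describe SRF cofactors alone. The ternary complex factor Elk3 differed by -0.59 ± 0.11 SE (8.09 and 8.11 in DMSO, 7.45 and 7.57 in sulforaphane arrays). Sap30, a subunit of a histone deacetylase complex, differed by -0.51 ± 0.14. Mrtfa, an actin-controlled SRF coactivator, differed by 0.18 ± 0.12 and Ets2 by -0.19 ± 0.12.

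Of 30 tested cytoskeletal SRF targets, 0 passed by limma, 1 (3.33%) had an unadjusted p under 0.05, against 13% of all genes, and the median was -0.012. That 1 was the fibronectin receptor subunit Itga5 (-0.74 ± 0.13, adjusted p = 0.0975 by limma), while Tagln, Fhl1 and Cfl2 differed by 0.19 to 0.23. Of 29 tested kinases, regulators and CREB factors upstream, 0 passed by limma, 3 (10.3%) had an unadjusted p under 0.05, against 13% of all genes, and the median was -0.031. The feedback inhibitor Spry1, a Sprouty protein that ERK signalling induces, was at 5.35 and 5.42 in DMSO and at 3.92 and 4.44 in sulforaphane arrays (-1.21 ± 0.18 SE, adjusted p = 0.0791 by limma). Its relative Spred1 differed by -0.43 ± 0.10, the kinase Mapkapk3 by -0.28 ± 0.10 and the p38 activator Map2k3 by 0.28 ± 0.13.

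**Figure D4:**
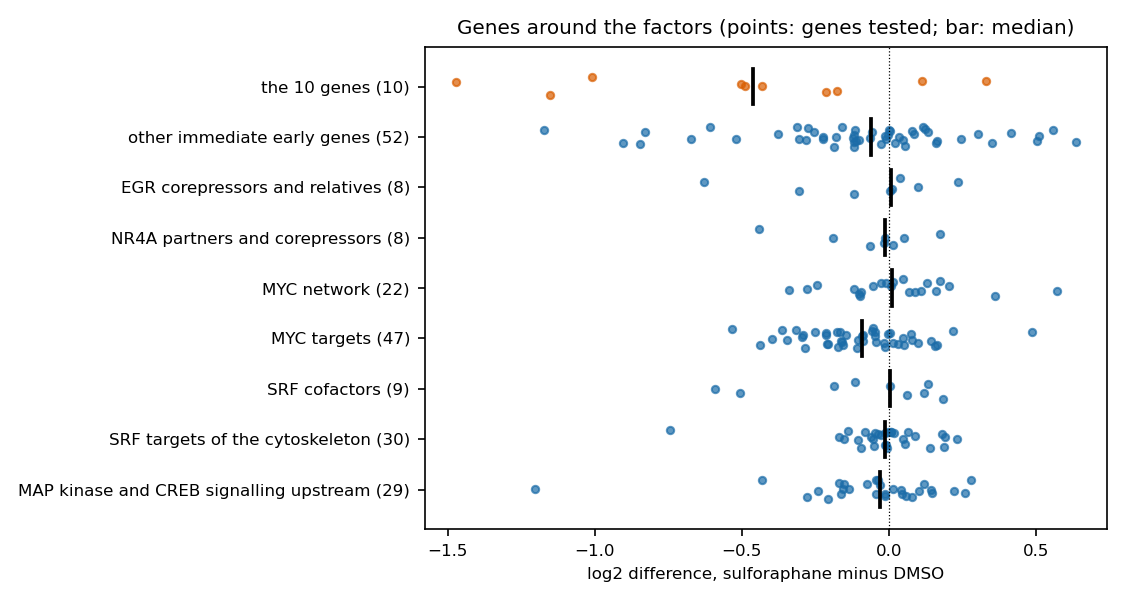
Log2 difference, sulforaphane minus DMSO, of the 10 genes (orange) and of the tested members of each surrounding list (blue), with the number tested in parentheses and a bar at the median. The medians of the surrounding lists lie between -0.091 and 0.011, and single genes such as Dusp2, Spry1, Itga5 and Nab2 stand out to the left.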

How the data were processed

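Affymetrix arrays were hybridised with biotin-labelled cRNA, per the labels' protocols. The authors deposited log2 values. The submitters' processing notes name RMA and R 2.15.1. This method corrects background, brings arrays to 1 distribution by quantile normalization and combines the probes of a set. The deposited values do not share 1 distribution, since the interquartile range was 3.41 in DMSO replicate 1 and 3.61 to 3.62 in the others. Base 2 is the base RMA uses and suits the range of the values. No header states it, and folds depend on it. The genome build is not given in the sources used here. Of 41345 probe sets, 23521 had 1 symbol in the platform annotation and 1814 several.

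Each gene kept its probe set with the highest mean, and the 14652 genes whose mean exceeded 2.91, the 40th percentile, were tested with limma 3.58.1 in R 4.3.3 (lmFit, eBayes, no replicate block, Benjamini-Hochberg, threshold 0.05). The fit had 2 residual and 4.02 prior degrees of freedom. An exact two-sided permutation test of 2 against 2 arrays cannot go below 0.333, so none was used. Their number limits the precision.

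The members and the lists were chosen with earlier results of these data known. Named genes are the 10 members, the 4 genes of smallest p in each list, and the 3 genes of nearest profile to each member whose groups do not overlap. In the search for nearest profiles, predicted genes, clone names and small RNA genes named by a number were passed over. Of the listed names, 5 were matched through a RefSeq synonym. Alternatives were other filters, centring, a second quantile normalization, other choices of probe sets, a replicate block, other eBayes priors and each array left out.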

Additional observations from a re-analysis of the deposited data

How the results depend on the processing

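With only 2 arrays per group, the number of calls depended on the settings far more than the differences did. Past the threshold, 9 genes were higher and 10 lower. There were 57 and 81 with the filter at the 60th percentile, 96 and 153 with an intensity trend, 34 and 72 with a second quantile normalization, 41 and 102 with centring on the genes tested (chosen after seeing the data), 11 and 23 with the mean of probe sets, and 4 and 4 with a replicate block. In the first 5 of these alternatives 3 of the 10 genes were called, Egr3 and Myc joining Nr4a1. Genes of the surrounding lists called lower were 6, 10, 6 and 7 in the first 4, and 0 with the block, against 1, and those called higher were 1 with the 60th percentile filter and 2 with the trend, against 0. With any single array left out 0 genes were called by limma, in the table as a whole, among the 10 and in the lists (1034 to 2814 had an unadjusted p under 0.05).

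The sign of all 10 differences was kept in every alternative run, except that of Ier3, which was -0.028 without DMSO replicate 2 and 0.25 without DMSO replicate 1. Nr4a1 ran from -1.55 to -1.40. Same-numbered samples did not deviate together (correlation -0.081), and the numbers are not known to pair samples, so the block was not used. Nr4a3 had groups that overlapped after median centring of all probe sets and after a second quantile normalization.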
